A study of Homo sapiens with 18 samples.

Results

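A set of 9 genes of cell death were followed through an interferon time course in human keratinocytes: the death ligand TNFSF10, the death receptors TNFRSF10A, TNFRSF10B and FAS, the initiator caspase CASP8, the apoptosis-promoting XAF1, the inflammatory caspases CASP1 and CASP4, and the necroptosis effector MLKL. The 9 genes were taken by name from a table of 16472 genes. All 9 had a row, and all 9 were among the 13280 genes that passed a filter on low values (3 or more libraries with an RPKM of 1 or above). RPKM counts reads relative to gene length and to library size. The cells were NIKS, an established line of normal immortalized keratinocytes grown on irradiated mouse fibroblasts of the J2/3T3 line. They were wild type (WT) or knockout (KO) for SP100, which encodes a protein of PML nuclear bodies, and either untreated (0 h) or given human interferon alpha 2a (25 ng/mL) for 12 or 48 h. Each of the 6 groups had 3 biological replicates, 18 libraries in all. Sample names give 1 line per genotype, so the SP100 genotype and any other difference between those lines cannot be told apart. Untreated cells were sampled at 0 h alone, and the length of interferon exposure cannot be told apart from the length of culture. The labels do not say what separated the replicates, and p-values measure only the spread between them.

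Type I interferons bind a shared receptor and activate a complex of transcription factors, which binds the interferon-stimulated response element (ISRE) near many genes. Other interferon regulatory factors (IRFs) recognise related, shorter sequences. Among the genes so induced are parts of the machinery for 3 forms of cell death: apoptosis set off by TRAIL and its receptors, pyroptosis through inflammatory caspases and gasdermins, and necroptosis through MLKL. Transcript levels of these genes do not measure cell death itself, since caspases, gasdermins and MLKL act only after their proteins are cleaved or phosphorylated.

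The start regions of 5 of the genes are shown because their transcripts moved together in interferon, and because the letters bound by interferon factors can be looked for in them. They come from RefSeq windows on GRCh38.p14, matched by symbol. Windows were found for 6 of the 9 genes (TNFSF10, XAF1, CASP8, CASP4, MLKL and FAS). Each line is written 5′ to 3′ on the gene's own strand and runs to the transcription start or a few bases past it. Capitals mark matches, on either strand, to the ISRE core (GAAA, any 2 bases, GAAA) or to the shorter IRF core AANNGAAA, which lies inside it. TNFSF10 is on the minus strand at chr3:172523431-172523680, XAF1 on the plus strand at chr17:6755796-6756049, MLKL on the minus strand at chr16:74700863-74701112, CASP8 on the plus strand at chr2:201233213-201233472 and CASP4 on the minus strand at chr11:104968575-104968824.
TNFSF10: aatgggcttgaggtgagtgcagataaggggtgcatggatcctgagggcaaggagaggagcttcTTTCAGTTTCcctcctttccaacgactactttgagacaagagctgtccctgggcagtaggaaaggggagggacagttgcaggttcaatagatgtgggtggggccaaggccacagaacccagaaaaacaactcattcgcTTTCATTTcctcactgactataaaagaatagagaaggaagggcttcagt
XAF1: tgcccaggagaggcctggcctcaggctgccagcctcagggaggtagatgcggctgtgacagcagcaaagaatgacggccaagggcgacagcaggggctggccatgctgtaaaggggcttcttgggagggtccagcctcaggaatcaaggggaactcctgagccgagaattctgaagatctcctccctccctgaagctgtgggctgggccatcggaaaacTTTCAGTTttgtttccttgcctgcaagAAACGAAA
MLKL: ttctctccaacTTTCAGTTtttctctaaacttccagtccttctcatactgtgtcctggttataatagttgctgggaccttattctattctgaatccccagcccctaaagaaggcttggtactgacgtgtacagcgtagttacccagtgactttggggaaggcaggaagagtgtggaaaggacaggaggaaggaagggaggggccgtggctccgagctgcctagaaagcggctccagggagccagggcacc
CASP8: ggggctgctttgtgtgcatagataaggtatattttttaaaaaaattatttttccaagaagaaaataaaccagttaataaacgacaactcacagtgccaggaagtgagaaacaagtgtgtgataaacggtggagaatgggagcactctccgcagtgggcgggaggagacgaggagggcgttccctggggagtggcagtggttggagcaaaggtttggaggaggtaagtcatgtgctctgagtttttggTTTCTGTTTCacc
CASP4: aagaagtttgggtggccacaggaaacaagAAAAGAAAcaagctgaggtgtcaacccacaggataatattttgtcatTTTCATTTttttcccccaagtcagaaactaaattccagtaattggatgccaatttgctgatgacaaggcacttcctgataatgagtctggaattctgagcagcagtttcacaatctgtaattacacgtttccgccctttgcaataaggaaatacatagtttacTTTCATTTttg
The ISRE core matched in 2 of the 6 genes with a window. In TNFSF10 it began 187 bases upstream of the start, and in CASP8 it began 3 bases upstream and ran across the start. Of all genes in the table, 4.38% held this core in at least 1 window, as did 3.57% of its 35116 windows. The same core with a further C at its end matched CASP8 alone of the 6 and 0.79% of all windows. The core TTCNNNGAA, which STAT dimers recognise, matched CASP8 alone, 200 bases upstream, and 7.66% of all windows. The IRF core matched in at least 1 window of each of the 6 genes, and in 26.72% of all genes and 22.83% of all windows. It was searched after the windows had been seen, so these shares give no test of the 6. CASP8, XAF1 and FAS had more than 1 window, which gives more chances of a match. FAS, which changed little in interferon, held its match 65 bases upstream of a start. XAF1 held 2 such matches around its start in the stretch shown, and CASP4 held 3. A match is a description of letters, and none was tested for binding here.

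The libraries were sequenced to similar depth: recovered from the steps of low values, relative depth ran from 0.84 to 1.27, a 1.51-fold range, and the absolute number of reads is unknown. The targeted gene, SP100, was lower in KO than in WT at each time without overlap, with KO means that were 50.5% of WT at 0 h, 55.9% at 12 h and 46.9% at 48 h. It rose in interferon in both genotypes, by 5.32-fold in WT and 5.89-fold in KO at 12 h. The 9 keratinocyte markers (KRT5, KRT14 and TP63 among them) summed to between 19130 and 23060 RPKM. Fibroblast markers had a row for 2 of 8 genes and summed to at most 3.18 RPKM, reached in KO at 12 h, melanocyte markers for 1 of 4 with at most 1.57 RPKM, and endothelial markers for 0 of 3. Of 7 immune markers 2 had a row. Their sum was 24.1 to 25.3 RPKM in untreated WT cells and 53.1 to 58.9 at 12 h, 19.6 to 21.1 and 45.0 to 51.5 in KO. CD68, which is not confined to immune cells, carried that rise, and CD14 fell. In bulk RNA of this kind, fewer cells with a transcript and less of it per cell cannot be told apart.

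At 12 h of interferon the death ligand, the initiator and inflammatory caspases, XAF1 and MLKL were all higher than in untreated cells of the same genotype, and TNFRSF10B was slightly lower. In WT, 8 of the 9 genes rose and 1 fell at an adjusted p under 0.05 (limma, Benjamini-Hochberg over all genes tested). In the same comparison 44.9% of all genes tested were called, 15.1% as higher and 29.8% as lower. In KO, 7 rose and 1 fell, against 48.8% of all genes called, 16% as higher and 32.8% as lower. Being called at 12 h was thus common in this table, and on the RPKM values as given more often as lower than as higher. That excess of lower calls depended on scaling. When libraries were rescaled by their median ratio over genes, 50.6% of calls in WT and 50.3% in KO were higher. The shares of all genes called higher or lower, here and below, are without that scaling. Of the 9, 4 (TNFSF10, XAF1, CASP1 and MLKL) changed at least 2-fold in both genotypes, which 2.56% of all genes did in WT and 2.91% in KO. The 9 were chosen with earlier results of these data known, so these shares describe them and are no test. The median change of the 9 was 0.53 in both genotypes, beside −0.09 for all genes tested. All changes are differences of log2(RPKM + 1), a scale that understates the change of low genes.

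**Figure D1:**
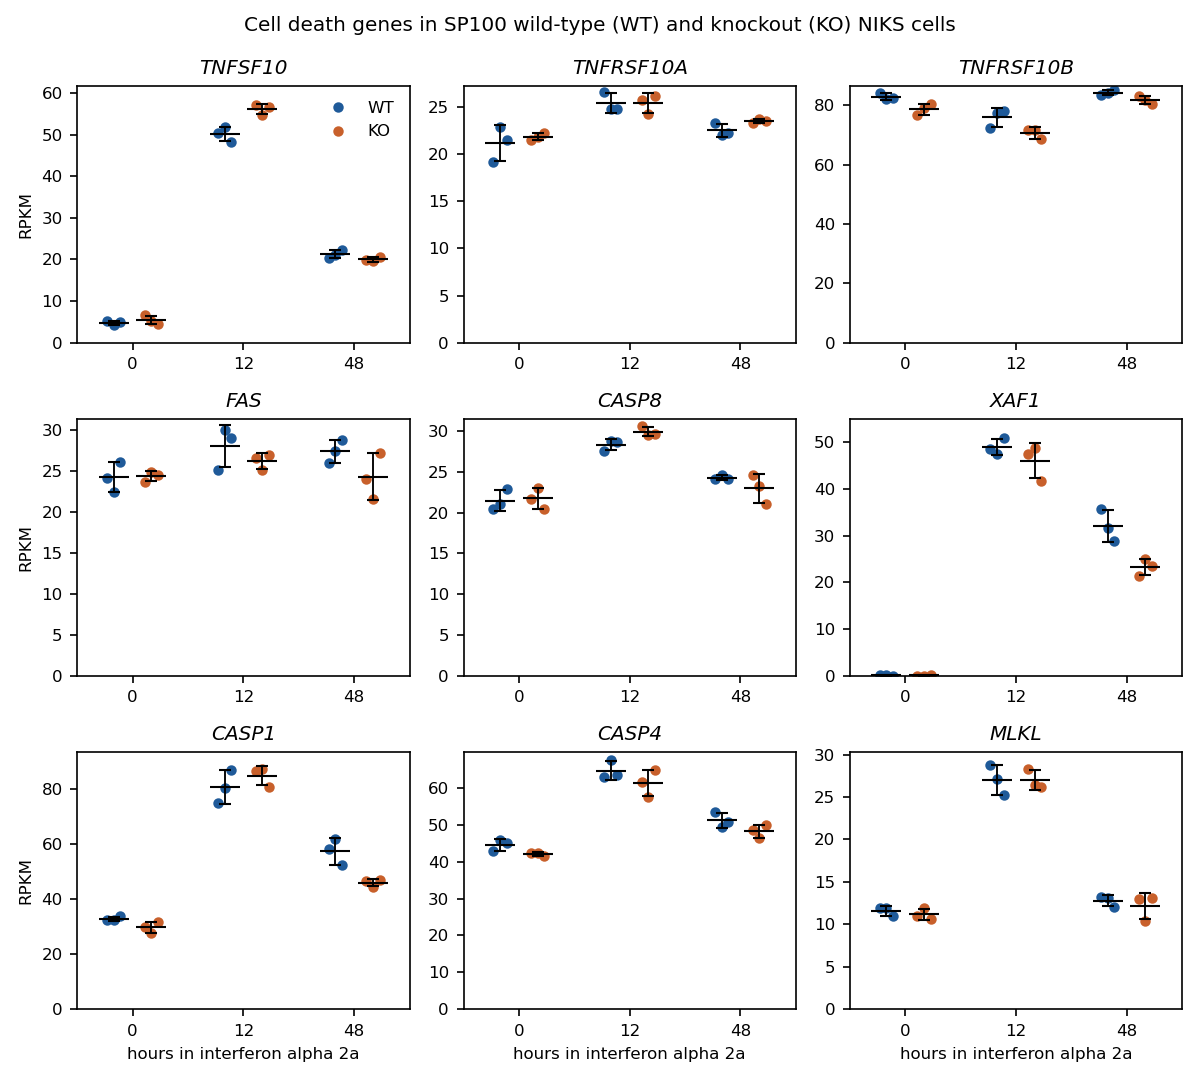
RPKM of each of the 9 genes (vertical axis, from 0) at 0, 12 and 48 h in interferon alpha 2a (horizontal axis, categories); points are libraries of WT and KO cells, horizontal bars are group means and error bars SD (n = 3). TNFSF10, XAF1, CASP1, CASP4, CASP8 and MLKL are highest at 12 h in both genotypes, and TNFRSF10B is lowest at 12 h.

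TNFSF10 (ENSG00000121858) encodes TRAIL, the ligand that engages both TNFRSF10 receptors on target cells. In WT it was at 5.12, 4.26 and 4.99 RPKM untreated, at 50.4, 51.8 and 48.3 RPKM at 12 h, and at 20.4, 21.1 and 22.4 RPKM at 48 h. In KO it was at 6.53, 5.23 and 4.58 RPKM untreated, at 57.0, 54.8 and 56.7 RPKM at 12 h, and at 19.9, 19.5 and 20.6 RPKM at 48 h. The 3 times did not overlap in either genotype, with 12 h the highest and 0 h the lowest. Mean RPKM at 12 h was 10.5-fold the untreated mean in WT and 10.3-fold in KO. On the log2 scale the ligand rose by 3.15 ± 0.084 (SE) in WT (limma adjusted p = 2.44e-14) and by 3.16 in KO (adjusted p = 2.08e-14). At 48 h it was still 1.95 above untreated cells in WT (adjusted p = 2.76e-11) and 1.71 above them in KO (adjusted p = 1.8e-10). From 12 to 48 h it fell by 1.20 in WT and by 1.45 in KO (adjusted p = 4.7e-08 and 4.09e-09).

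The death receptors were already expressed before interferon and moved little. TNFRSF10B (ENSG00000120889), a TRAIL receptor that signals death, was the most abundant of the 9 per length in untreated cells, at 84.3, 82.0 and 82.4 RPKM in WT and 76.7, 79.0 and 80.4 RPKM in KO. At 12 h it was at 72.2, 77.6 and 78.1 RPKM in WT and at 71.8, 71.7 and 68.5 RPKM in KO. All 3 libraries at 12 h lay below all 3 untreated ones in each genotype. The difference was −0.13 ± 0.035 (SE) in WT (limma adjusted p = 0.00806) and −0.15 in KO (adjusted p = 0.00194). Both calls were lost when libraries were rescaled by their median ratio over genes, which gave −0.04 in WT (adjusted p = 0.416) and −0.05 in KO (adjusted p = 0.24). Without WT replicate 1 at 12 h, the lowest of its group, the WT difference had an adjusted p of 0.0506. At 48 h it stood at 83.4, 84.3 and 85.2 RPKM in WT and 83.1, 81.9 and 80.6 RPKM in KO, with differences from untreated cells of 0.02 (adjusted p = 0.721) and 0.06 (adjusted p = 0.322) that were not called.

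TNFRSF10A (ENSG00000104689), the other TRAIL receptor with a death domain, was less abundant. It was at 19.1, 22.9 and 21.5 RPKM in untreated WT cells, at 26.6, 24.8 and 24.8 RPKM at 12 h and at 23.3, 22.0 and 22.2 RPKM at 48 h. In KO it was at 21.5, 21.8 and 22.2 RPKM untreated, at 25.8, 24.2 and 26.2 RPKM at 12 h and at 23.3, 23.8 and 23.6 RPKM at 48 h. The 12 h libraries lay above all others of their genotype. It rose at 12 h by 0.25 ± 0.056 (SE) in WT (limma adjusted p = 0.00155) and by 0.21 in KO (adjusted p = 0.00567), calls that held in all 25 alternatives tried. At 48 h the differences from untreated cells were 0.09 in WT (adjusted p = 0.34) and 0.10 in KO (adjusted p = 0.248). The decline from 12 to 48 h passed in WT (−0.17, adjusted p = 0.0286), but not without WT replicate 1 at 12 h (adjusted p = 0.115), nor without WT replicate 2 or 3 at 48 h (adjusted p = 0.091 and 0.080). In KO it did not pass (−0.10, adjusted p = 0.151). The TNFRSF10 genes are similar in sequence, and reads that fit more than 1 of them may have been divided between them by the counting.

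FAS (ENSG00000026103), the receptor for the ligand FASLG, changed little. It was at 24.2, 22.4 and 26.1 RPKM in untreated WT cells, at 25.2, 29.98 and 29.01 RPKM at 12 h and at 26.0, 27.4 and 28.8 RPKM at 48 h. In KO it was at 23.7, 24.9 and 24.5 RPKM untreated, at 26.6, 25.2 and 26.9 RPKM at 12 h and at 24.1, 21.5 and 27.2 RPKM at 48 h. The WT groups overlapped at every time, and in KO the 12 h libraries lay above the untreated ones by a narrow margin. The WT difference at 12 h, 0.20 ± 0.079 (SE), was just past the threshold (limma adjusted p = 0.0495), and the call was lost in 17 of 25 alternatives, with adjusted p between 0.00719 and 0.188. In KO the 12 h difference was 0.10 (adjusted p = 0.304), and at 48 h the differences were 0.17 in WT (adjusted p = 0.173) and −0.01 in KO (adjusted p = 0.962).

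CASP8 (ENSG00000064012) encodes the protease that death receptors recruit through FADD, and which starts the caspase cascade. It was at 20.5, 21.0 and 22.9 RPKM in untreated WT cells, at 27.5, 28.8 and 28.7 RPKM at 12 h and at 24.2, 24.6 and 24.1 RPKM at 48 h. In KO it was at 21.6, 23.1 and 20.4 RPKM untreated, at 30.6, 29.5 and 29.7 RPKM at 12 h and at 24.6, 23.3 and 21.0 RPKM at 48 h. Every 12 h library exceeded every other library of its genotype. Mean RPKM at 12 h was 1.32-fold the untreated mean in WT and 1.38-fold in KO, and on the log2 scale CASP8 rose by 0.39 ± 0.057 (SE) (limma adjusted p = 5.77e-05) and 0.45 (adjusted p = 1.1e-05). At 48 h the difference from untreated cells missed the threshold in WT (0.17, adjusted p = 0.0605) and in KO (0.07, adjusted p = 0.448). The WT value passed without the untreated WT replicate 3 (0.22, adjusted p = 0.0347), and also without KO replicate 1 or 3 at 48 h, which enter only through the shared spread (adjusted p = 0.0489 and 0.0352).

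XAF1 (ENSG00000132530), which antagonises the caspase inhibitor XIAP, had the largest change of the 9 and went from next to nothing to a level like that of TRAIL. The untreated libraries were listed at 0.16, 0.11 and 0 RPKM in WT and at 0, 0.03 and 0.21 RPKM in KO. At 12 h it was at 48.6, 47.6 and 50.9 RPKM in WT and 47.5, 48.8 and 41.8 RPKM in KO. At 48 h it was at 35.8, 31.7 and 28.99 RPKM in WT and 21.5, 25.0 and 23.6 RPKM in KO. No treated library came near an untreated one, and at 48 h the 3 KO libraries all lay below the 3 WT libraries. With untreated levels at or near 0 no fold of RPKM is given. On the log2(RPKM + 1) scale the rise at 12 h was 5.52 ± 0.093 (SE) in WT (limma adjusted p = 3.75e-17) and 5.45 in KO (adjusted p = 4.18e-17), and at 48 h it was 4.92 and 4.50 (adjusted p = 2.51e-16 and 8.2e-16). The decline from 12 to 48 h was −0.60 in WT (adjusted p = 0.000132) and −0.95 in KO (adjusted p = 1.11e-06). With a pseudocount of 0.1 the WT decline had an adjusted p of 0.171. That pseudocount sets values near 0 farther apart, and the untreated libraries enter this comparison only through the shared spread.

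CASP1 (ENSG00000137752), the inflammasome protease that matures IL1B and IL18 and cuts gasdermin D, rose most of the 4 caspase and effector genes. It was at 32.5, 32.4 and 33.7 RPKM in untreated WT cells, at 74.8, 80.3 and 87.1 RPKM at 12 h and at 58.1, 61.9 and 52.2 RPKM at 48 h. KO libraries had 29.95, 27.6 and 31.6 RPKM untreated, at 86.4, 87.4 and 80.8 RPKM at 12 h and at 46.6, 44.4 and 46.9 RPKM at 48 h. The 3 times were apart in each genotype, and at 12 h CASP1 passed TNFRSF10B as the most abundant of the 9 per length. Mean RPKM at 12 h was 2.46-fold the untreated mean in WT and 2.85-fold in KO. On the log2 scale it rose at 12 h by 1.27 ± 0.065 (SE) in WT and 1.48 in KO (limma adjusted p = 2.48e-10 and 2.64e-11), and at 48 h by 0.78 and 0.61 (adjusted p = 2.54e-07 and 5.88e-06). CARD16 lies beside CASP1 and is a near-copy of part of it, so reads shared between them are uncertain.

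CASP4 (ENSG00000196954), which senses bacterial lipopolysaccharide in the cytosol, rose less. It was at 42.9, 46.1 and 45.2 RPKM in untreated WT cells, at 63.2, 67.7 and 63.6 RPKM at 12 h and at 53.6, 49.6 and 50.8 RPKM at 48 h. KO cells had 42.4, 42.4 and 41.6 RPKM untreated, at 61.8, 57.7 and 64.9 RPKM at 12 h and at 48.6, 46.4 and 50.0 RPKM at 48 h. The groups at the 3 times did not overlap within a genotype. It rose at 12 h by 0.53 ± 0.048 (SE) in both genotypes (limma adjusted p = 3.25e-07 in WT and 2.47e-07 in KO) and was still 0.19 higher at 48 h in both (adjusted p = 0.0124 and 0.0136). The 48 h calls were lost without the untreated WT replicate 1 (adjusted p = 0.0626), without WT replicate 1 at 48 h (adjusted p = 0.0608) and, in KO, without KO replicate 3 at 48 h (adjusted p = 0.0572).

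MLKL (ENSG00000168404), the pseudokinase that permeabilises the plasma membrane in necroptosis, was close to its untreated level again by 48 h. It was at 11.9, 11.9 and 10.9 RPKM in untreated WT cells, at 28.7, 27.1 and 25.2 RPKM at 12 h and at 13.2, 13.1 and 12.0 RPKM at 48 h. KO cells had 11.0, 11.9 and 10.7 RPKM untreated, at 28.3, 26.4 and 26.2 RPKM at 12 h and at 13.0, 10.4 and 13.1 RPKM at 48 h. The 12 h libraries stood clear of the rest in both genotypes, and in KO the 0 and 48 h libraries overlapped. Mean RPKM at 12 h was 2.33-fold the untreated mean in WT and 2.41-fold in KO, a log2 rise of 1.15 ± 0.078 (SE) and 1.20 (limma adjusted p = 9.67e-09 and 5.37e-09). At 48 h the differences from untreated cells were 0.13 (adjusted p = 0.306) and 0.11 (adjusted p = 0.417).

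By 48 h fewer of the 9 genes passed as higher than untreated, though the threshold did not mark a gap in the changes. In WT, CASP4 (called) was at 0.19, beside 0.17 for both FAS and CASP8 (not called). In WT, 4 of the 9 (TNFSF10, XAF1, CASP1 and CASP4) were called higher than untreated and 0 lower, against 12.8% of all genes called (6.52% as higher, 6.3% as lower). In KO the called genes were the same 4, against 13.3% of all genes called (5.9% as higher, 7.42% as lower). Comparisons at 12 and 48 h share their untreated libraries. Set against the rise in mean RPKM at 12 h, the rise that remained at 48 h was 65.5% for XAF1, 51.3% for CASP1, 41.1% for CASP8, 36.4% for TNFSF10, 32.8% for CASP4 and 7.80% for MLKL in WT. In KO the remaining rise was 50.6% for XAF1, 29.4% for CASP1, 15% for CASP8, 28.7% for TNFSF10, 31.9% for CASP4 and 6.33% for MLKL. TNFRSF10A and FAS rose little at 12 h. Their remaining rise was 31.8% and 83.5% in WT, and 48.2% and −3.19% in KO. Tested directly from 12 to 48 h, 7 of the 9 genes fell and TNFRSF10B rose in WT, against 35.9% of all genes called (24.6% as higher, 11.3% as lower). In KO, 6 fell and TNFRSF10B rose, against 41.7% called (27.7% as higher, 14% as lower). MLKL had one of the largest declines, −1.02 in WT and −1.09 in KO (limma adjusted p = 1.26e-07 and 3.88e-08). The rise of TNFRSF10B from 12 to 48 h was 0.15 in WT (adjusted p = 0.00337), a call lost on median-ratio scaling (0.06, adjusted p = 0.15), and 0.21 in KO (adjusted p = 0.000192). That scaling moved the share of higher genes among all called at 12 h in WT from 33.6% to 50.6%, and for KO from 32.7% to 50.3%. For 48 h against 12 h the share moved in WT from 68.5% to 47.4%, and for KO from 66.4% to 48.0%.

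**Figure D2:**
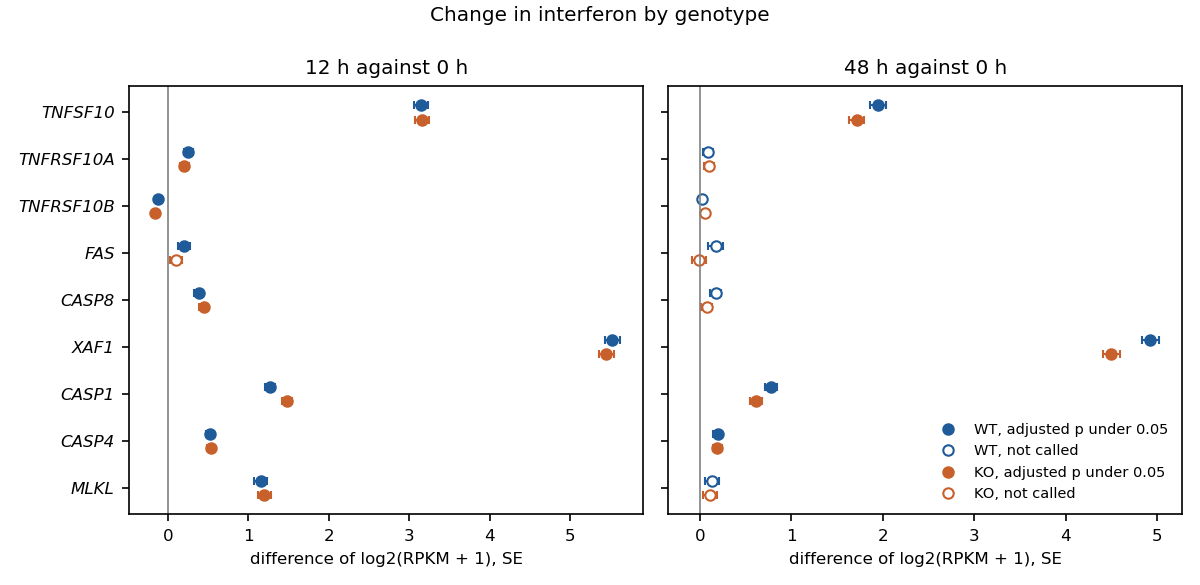
Difference of log2(RPKM + 1) from untreated cells of the same genotype (horizontal axis, with SE from limma) for the 9 genes at 12 h (left) and 48 h (right); filled points passed an adjusted p of 0.05. XAF1 and TNFSF10 are farthest to the right at both times, MLKL lies at 1.15 and 1.20 at 12 h and at 0.13 and 0.11 at 48 h.

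Between genotypes, calls among the 9 genes were made at 48 h alone. In untreated cells 0 of the 9 were called, against 4.89% of all genes (2.82% as higher in KO, 2.07% as lower), with differences (KO minus WT) from −0.14 to 0.15 and 2 genes, TNFRSF10B and CASP1, at an unadjusted p under 0.05 (limma). At 12 h 0 were called, against 3.62% (1.6% as higher, 2.02% as lower), with differences from −0.10 to 0.16 and TNFRSF10B alone at an unadjusted p under 0.05. Groups could still be apart without a call. With 3 libraries a side this can arise by chance, and the share of all genes so apart was not computed. In KO, TNFRSF10B lay below WT without overlap at all 3 times, at 94.9%, 93.1% and 97.1% of the WT mean, as did CASP1 (90.5%) and CASP4 (94.3%) in untreated cells. At 12 h TNFSF10 and CASP8 lay above WT without overlap, at 112% and 106% of the WT mean, TNFSF10 by 0.16 on the log2 scale (adjusted p = 0.358). At 48 h TNFRSF10A lay above WT by a narrow margin. At 48 h 2 of the 9 were called lower in KO, XAF1 and CASP1, against 4.19% of all genes called (2.03% as higher, 2.16% as lower). XAF1 differed by −0.44 ± 0.093 (SE; 95% interval −0.64 to −0.25; adjusted p = 0.0103), with means of 23.3 RPKM in KO and 32.1 RPKM in WT. CASP1 differed by −0.31 ± 0.065 (SE; 95% interval −0.45 to −0.17; adjusted p = 0.0104), with means of 46.0 and 57.4 RPKM. In both genes all 3 KO libraries lay below all 3 WT libraries. The other 7 differed by −0.17 to 0.06 at 48 h and were not called.

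Neither call at 48 h was firm. That of XAF1 was lost with a pseudocount of 0.1 (adjusted p = 0.575), in a fit to the 6 libraries compared (0.061), without WT replicate 1 at 48 h (0.0564) and without KO replicate 1 at 48 h (0.0607). The smaller pseudocount sets untreated XAF1 values, 0 to 0.21 RPKM in KO, farther apart on the log scale. Those libraries enter the 48 h comparison only through the shared spread, and their part in the lost call was not tested. That of CASP1 was lost in the fit to the 6 libraries (adjusted p = 0.0747), without WT replicate 2 at 48 h (0.0629) and without KO replicate 2 at 48 h (0.0503). Whether the genotypes responded differently to interferon is a separate question, answered by the interaction of genotype and time. For 0 of the 9 was that interaction called at 12 h (0.0753% of all genes called; CASP1 alone at an unadjusted p under 0.05) or at 48 h (0.0828%, of which 0.0678% higher and 0.0151% lower; XAF1 alone at an unadjusted p under 0.05). The XAF1 interaction at 48 h was −0.43 (95% interval −0.71 to −0.15; limma adjusted p = 0.609). The change from 12 to 48 h was compared between genotypes after the values had been seen. It gave 0 calls among all genes, beside 904 at an unadjusted p under 0.05, with CASP1 at −0.39 (95% interval −0.58 to −0.19; adjusted p = 0.387) and XAF1 at −0.35 (adjusted p = 0.643). These comparisons reuse the same libraries, and their values for a gene are not independent of one another.

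**Figure D3:**
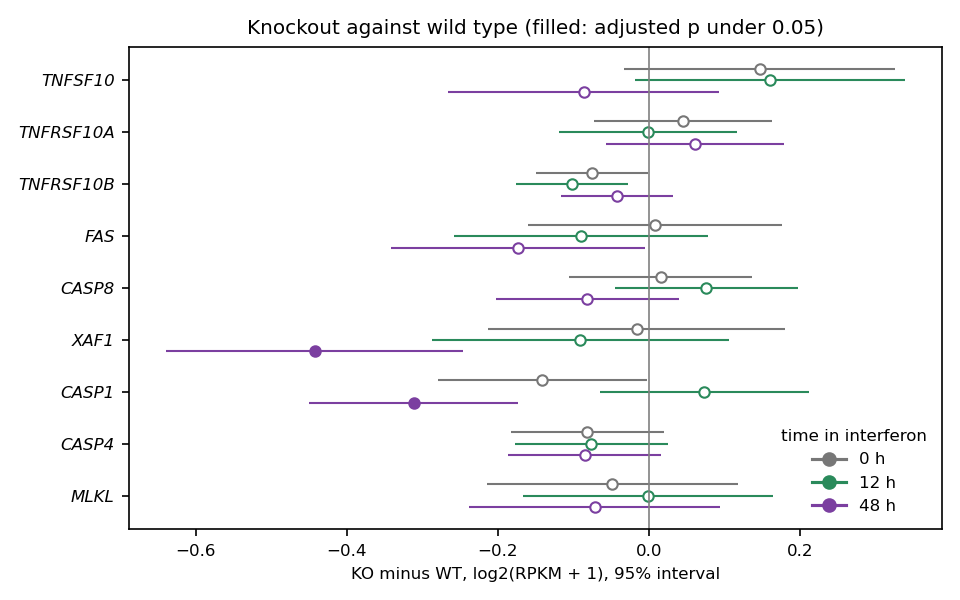
Difference of log2(RPKM + 1), KO minus WT (horizontal axis, with 95% intervals from limma), for the 9 genes at 0, 12 and 48 h; filled points passed an adjusted p of 0.05. XAF1 at −0.44 and CASP1 at −0.31, both at 48 h, are the filled points.

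In the order of group means, the neighbours that overlapped differ by gene. For TNFSF10 the order was KO at 12 h, WT at 12 h, WT at 48 h, KO at 48 h, KO untreated and WT untreated, with overlap between the genotypes at 48 h and untreated. For XAF1 and CASP1 the genotypes overlapped at 12 h, and WT lay above KO without overlap at 48 h. For CASP4 and MLKL the genotypes overlapped at both treated times. For CASP8, KO lay above WT at 12 h without overlap. Its 0 and 48 h groups overlapped with their neighbours among them in the order, but WT at 48 h lay above untreated WT without overlap. TNFRSF10B ran the other way, with the 12 h groups lowest and KO at 12 h lowest of all. Its change from untreated cells at 12 h lay at percentile 44.5 of all genes tested in WT and 42.9 in KO. Neither change was called after median-ratio scaling. The genes whose log2 values followed each member most closely over the 18 libraries, which share the same time course, were PNPT1 (r = 0.996) and GMPR (r = 0.995) for TNFSF10, IFIT5 and DTX3L (both r = 0.998) for XAF1, and BLZF1 (r = 0.988) and GBP1 (r = 0.987) for CASP1. For CASP4 they were LAMA3 (r = 0.986) and DNAJA1 (r = 0.979), for CASP8 NBN (r = 0.962) and AMD1 (r = 0.960), and for MLKL CHORDC1 (r = 0.986) and SERPINB8 (r = 0.980). The receptors were followed less closely: TNFRSF10A by FAM136A (r = 0.919) and IL32 (r = 0.908), TNFRSF10B by FOXA2 and SLC22A3 (both r = 0.923), and FAS by DCBLD1 (r = 0.806) and CAMSAP1 (r = 0.780). Among the 9 themselves, TNFSF10 and CASP1 were closest (r = 0.970), and TNFRSF10B was negatively related to MLKL (r = −0.80).

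The wider death receptor list (16 of 19 genes tested) held the decoy receptors TNFRSF10C and TNFRSF10D, the adaptors and the executioner caspases. TNFRSF10C was tested and had no call with a change of at least 0.5 from untreated cells in either genotype. At 12 h 7 of the 16 rose and 1 fell in WT (median 0.14), and 7 rose and 3 fell in KO (median 0.19). Over all genes 44.9% were called in WT (15.1% higher, 29.8% lower) and 48.8% in KO (16% higher, 32.8% lower). The list's share called higher lay above that of all genes in each genotype, and its share called lower lay below. This difference in shares was not tested. TNFRSF10D, a TRAIL receptor with a truncated death domain that binds the ligand without signalling death, fell from 15.9, 16.4 and 17.5 RPKM to 5.84, 5.38 and 5.85 RPKM in WT and from 18.5, 17.3 and 18.0 RPKM to 5.62, 6.45 and 6.07 RPKM in KO. Untreated and treated libraries were far apart, and it stayed low at 48 h, between 6.39 and 7.95 RPKM over both genotypes. WT changed by −1.40 and then −1.21, and KO by −1.43 and then −1.12 (limma adjusted p at most 3.91e-10). CFLAR, which encodes the CASP8 inhibitor c-FLIP, rose in WT by 0.81 and stood 0.63 up at 48 h (adjusted p = 4.5e-06 and 0.000219) and by 0.73 and 0.62 in KO (adjusted p = 1.05e-05 and 0.000254). RIPK1, the kinase shared by survival and necroptosis complexes, rose at 12 h by 0.49 in WT and 0.60 in KO. At 48 h, 2 of the 16 were called higher and 3 lower in WT, and 1 and 3 in KO. Beside them, 6.52% of all genes were higher and 6.3% lower in WT, and 5.9% and 7.42% in KO.

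BID, which links CASP8 to mitochondria, was higher in KO at every time, by 0.38 untreated, 0.27 at 12 h and 0.38 at 48 h (limma adjusted p = 0.0030, 0.036 and 0.00262). The 12 h call was lost in 6 of 25 alternatives, among them leaving out WT replicate 1 or 3 or KO replicate 1 or 3 (adjusted p = 0.149, 0.134, 0.131 and 0.147). CASP6, an executioner caspase, was higher in untreated KO than in WT cells by 0.50 (adjusted p = 0.0396), a call lost in 10 of 25 alternatives and on leaving out any of the 6 untreated libraries (up to 0.173 without WT replicate 2), and fell in KO by 0.56 at 12 h and by 0.57 at 48 h (adjusted p = 0.00234 and 0.00871). Before interferon the WT libraries had 22.1, 17.8 and 21.5 RPKM of CASP6 and the KO libraries 29.4, 27.9 and 30.7 RPKM, without overlap. At 12 h the WT and KO libraries of CASP6 overlapped, between 16.8 and 23.7 RPKM.

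Inhibitors of apoptosis and their antagonists (8 of 10 tested) showed 2 higher and 1 lower at 12 h in WT (median 0.14) and 2 higher and 2 lower in KO (median 0.04), beside 44.9% and 48.8% of all genes called. BIRC3, a ubiquitin ligase that restrains RIPK1 and CASP8 signalling, was highest at 48 h. In WT it had 3.78, 3.42 and 3.32 RPKM untreated, 4.11, 5.31 and 3.96 RPKM at 12 h and 7.00, 7.97 and 7.94 RPKM at 48 h. In KO it had 3.48, 3.10 and 3.64 RPKM untreated, 5.51, 5.47 and 4.59 RPKM at 12 h and 8.29, 6.32 and 7.06 RPKM at 48 h. The 3 times did not overlap in either genotype. At 12 h the mean was 1.27-fold the untreated mean in WT, a difference of 0.27 that just missed the threshold (limma adjusted p = 0.0506, and 0.0149 to 0.248 over 25 alternatives, 8 of which called it). In KO it was 1.52-fold at 12 h, a rise of 0.49 (adjusted p = 0.00135). At 48 h BIRC3 was up by 0.94 in WT and 0.90 in KO (adjusted p = 1.27e-05 and 2.07e-05). SEPTIN4, an antagonist of XIAP, was lower at 48 h by a difference of −0.50 in WT and −0.68 in KO (adjusted p = 0.0137 and 0.00142), and the WT call was lost in 3 of 24 alternatives, which included leaving out replicate 1 untreated (adjusted p = 0.0691) or at 48 h (0.0682). At 48 h 1 gene was called higher and 2 lower in WT, and 1 and 1 in KO. The shares of all genes were 6.52% higher and 6.3% lower in WT, and 5.9% and 7.42% in KO.

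Of the mitochondrial list (18 of 23 tested), 4 rose and 7 fell at 12 h in each genotype, with medians of −0.04 in WT and −0.02 in KO. Over all genes 15.1% rose and 29.8% fell in WT and 16% and 32.8% in KO, so these counts lie near the background. At 48 h 5 rose in WT and 4 in KO with 0 falling, beside 6.52% and 5.9% of all genes called higher. BAK1, which forms pores in the outer mitochondrial membrane, rose at 12 h by 0.63 in WT and 0.68 in KO (limma adjusted p = 8.57e-08 and 2.4e-08) and at 48 h by 0.37 and 0.42. Its partner BAX did not pass in WT at 12 h (means of 110.2 RPKM untreated and 110.3 RPKM at 12 h). In KO it fell at 12 h from 98.1, 105 and 118 RPKM to 86.7, 91.7 and 97.3 RPKM, without overlap (−0.22, adjusted p = 0.0115). That call was lost on median-ratio scaling (adjusted p = 0.171), in the libraries compared alone (0.0519), without the untreated KO replicate 3 (0.0701) and without KO replicate 1 at 12 h (0.0569). BAX was lower in KO than in WT by a difference of −0.26 at 12 h (adjusted p = 0.0316) and −0.32 at 48 h (adjusted p = 0.00726). The 12 h call between genotypes was lost in 6 of 25 alternatives, among them leaving out WT replicate 2 or 3 or KO replicate 1 or 2 (adjusted p = 0.0981, 0.104, 0.147 and 0.0799), and the 48 h call in 0. PMAIP1, which encodes a BH3-only protein, rose at 12 h by 0.70 in WT and 0.51 in KO, while BBC3, which encodes another, fell by 0.57 and 0.63 (adjusted p = 0.00261 and 0.00101). CASP9, the initiator of the mitochondrial pathway, was at 1.75, 2.46 and 2.25 RPKM in untreated WT cells and at 1.20, 1.10 and 1.01 RPKM at 12 h, a fall that passed in both genotypes (−0.58 and −0.82, adjusted p = 0.00858 and 0.000614). PMAIP1 at 12 h was lower in KO, by a difference of −0.35 (adjusted p = 0.0112, and 0.0621 without WT replicate 1 or 0.0553 without KO replicate 2). CYCS, cytochrome c, was 0.19 higher in WT at 48 h than untreated (adjusted p = 0.00805). It was also 0.19 higher in untreated KO than WT cells (adjusted p = 0.0223), but not called without WT replicate 2 (0.118) or KO replicate 2 or 3 (0.114 and 0.0567).

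The inflammasome and pyroptosis list (18 of 23 tested) had 7 higher and 4 lower at 12 h in WT (median −0.03) and 6 higher and 5 lower in KO (median −0.05). Over all genes 15.1% were higher and 29.8% lower in WT, and 16% and 32.8% in KO. The share of the list called higher lay above that background in each genotype, and the share called lower did not exceed it. These differences in shares were not tested. At 48 h 4 were higher and 1 lower in WT, and 2 and 1 in KO. Over all genes 6.52% were then higher and 6.3% lower in WT, and 5.9% and 7.42% in KO. The DNA sensor IFI16 rose in WT from a mean of 74.3 to 282 RPKM, and in KO from 74.1 to 305 RPKM, by 1.91 and 2.03 on the log2 scale (limma adjusted p = 2.21e-16 and 8.1e-17), and was still 1.38 and 1.27 higher at 48 h. AIM2, a sensor of DNA in the cytosol, reached 1.00, 1.00 and 1.42 RPKM in WT at 12 h from 0.12, 0 and 0.32 RPKM. CARD16, an inhibitor of CASP1, rose by 0.90 in WT and 0.77 in KO at 12 h. GSDMD, the pore former cut by CASP1 and CASP4, rose at 12 h from 5.61, 5.23 and 5.71 to 13.1, 10.1 and 11.8 RPKM in WT, and from 4.19, 5.28 and 4.26 to 7.95, 7.51 and 7.26 RPKM in KO. All 3 KO libraries at 12 h lay below the 3 WT ones, a difference of −0.56 (adjusted p = 0.0074) that held in all 25 alternatives, and the interaction at 12 h was not called. Other gasdermins were GSDMC, up by 0.56 in WT and 0.80 in KO at 12 h, GSDMB, up by 0.68 at 12 h in WT, and GSDMA, down by 0.67 at 48 h in WT (adjusted p = 0.00875, and 0.0516 without the untreated replicate 3). Between genotypes at 12 h GSDMC went the other way from GSDMD, higher in KO by 0.30 (limma adjusted p = 0.0246).

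The cytokines that CASP1 matures went down at 12 h, when CASP1 was highest. At that time 29.8% of all genes were called lower in WT and 32.8% in KO. IL18 fell at 12 h from a mean of 66.4 to 38.1 RPKM in WT and from 72.8 to 40.2 RPKM in KO, by 0.78 and 0.84 (limma adjusted p = 1.11e-07 and 3.66e-08). IL1B fell at 12 h by 0.36 in WT and 0.84 in KO (adjusted p = 0.000426 and 6.18e-08), then stood above untreated cells at 48 h by 0.29 and 0.23 (adjusted p = 0.00909 and 0.0354). The 48 h call of IL1B was lost in WT without replicate 3 at 48 h (adjusted p = 0.0505), and in KO in the libraries compared alone (0.110) and without replicate 1 or 2 untreated (0.115 and 0.135) or at 48 h (0.0691 and 0.148). NINJ1, which ruptures the plasma membrane late in lytic death, fell at 12 h by 0.81 in WT and 0.94 in KO (adjusted p = 1.93e-06 and 2.82e-07). NINJ1 was also lower in KO than in WT at every time, by differences of −0.45, −0.58 and −0.43 (adjusted p = 0.00514, 0.000654 and 0.0074), calls kept in all 25 alternatives.

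Of the necroptosis genes other than MLKL (7 of 8 tested), 4 were called higher and 0 lower at 12 h in WT (median 0.23), and 5 and 0 in KO (median 0.31), beside 15.1% and 16% of all genes called higher. At 48 h limma called 0 of the 7 in either genotype, beside 12.8% of all genes in WT and 13.3% in KO. Of the 7, 0 in WT and 2 in KO had an unadjusted p under 0.05, and the medians were −0.02 in WT and 0.22 in KO. TNFAIP3, a ubiquitin editor that restrains this pathway, rose by 0.71 in WT and 1.21 in KO (limma adjusted p = 0.00204 and 1.56e-05). RIPK3, the kinase that phosphorylates MLKL, was low throughout, at 0.57, 0.40 and 0.47 RPKM in untreated WT cells and 0.79, 0.40 and 1.00 RPKM at 12 h, and at 0.67, 0.77 and 1.12 RPKM and 1.93, 1.13 and 1.5 RPKM in KO. It passed in KO at 12 h (0.44, adjusted p = 0.0348). ZBP1, a sensor that activates RIPK3, was listed at 0 in all 6 untreated libraries and reached at most 0.59 RPKM, below the filter.

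**Figure D4:**
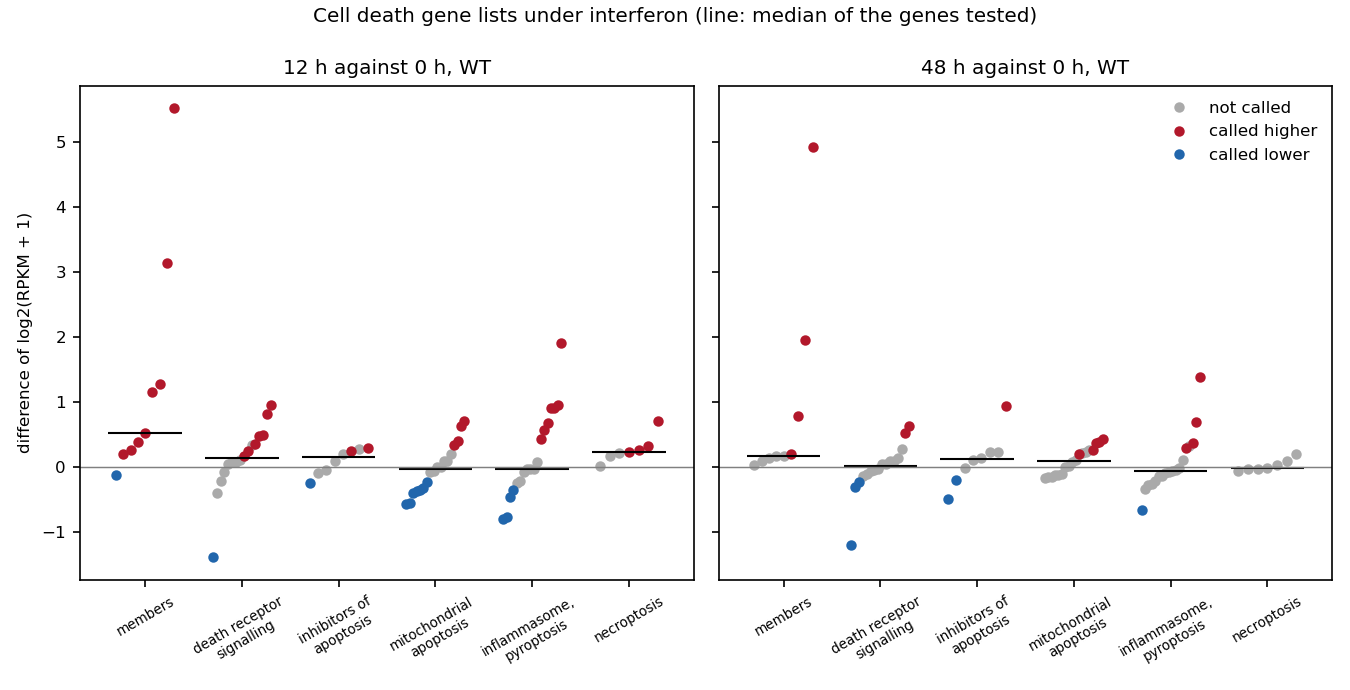
Difference of log2(RPKM + 1) from untreated cells in WT (vertical axis) at 12 h (left) and 48 h (right) for each gene tested, by list; red points were called higher, blue lower, grey not called, and black lines are list medians. The 9 members have a median of 0.53 at 12 h and 0.17 at 48 h, beside −0.04 and 0.09 for the mitochondrial list.

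Lists of cell state were read over the same times, beside 44.9% of all genes called at 12 h in WT and 48.8% in KO, and 12.8% and 13.3% at 48 h. Of 8 differentiation genes tested, 5 rose and 1 fell at 12 h in each genotype, and 1 rose in WT and 2 in KO at 48 h. Of 10 proliferation genes, 2 rose and 7 fell at 12 h in each genotype, and 2 fell in WT and 5 in KO at 48 h. Their part in the changes of the cell death genes was not tested.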

How the data were processed

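RNA was measured by stranded mRNA sequencing in 18 libraries. The authors deposited 1 table of RPKM values for 16472 Ensembl genes, rounded to 2 decimals. The submitters' processing notes name cutadapt, STAR 2.6.1, RSEM 1.3.0, limma 3.50.3 and hg19, with no role or order; which reads made up the total and the annotation are not given in the sources used here. Symbols came from a reference table that named 14576 genes.

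Count models do not suit RPKM and were not used. Genes that reached an RPKM of 1 in 3 or more libraries were tested as log2(RPKM + 1) in limma 3.58.1 (R 4.3.3): a model of 6 group means over all libraries, variances with a mean trend, and Benjamini-Hochberg adjustment over the 13280 genes in each comparison, threshold 0.05. A gene called at least 2-fold had a log2 difference of at least 1. The fit was tested on simulated data with known changes. Genes beyond the 9 were named where called with a change of at least 0.5 in interferon, or called between genotypes or in an interaction; RIPK3, ZBP1, CD14 and CD68 were named after their values were seen. The members and lists were chosen with earlier results of these data known. Alternatives were a pseudocount of 0.1, no filter, median-of-ratios scaling, a filter on mean RPKM (5 or above), the libraries compared alone, no variance trend, a replicate block and the omission of each library. Promoter windows came from RefSeq on GRCh38.p14, a later build than hg19, and no coordinate of the deposited table was used. Some genes of the lists that met the naming rule are not reported here.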

Additional observations from a re-analysis of the deposited data

How the results depend on the processing

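Of 42 calls for the 9 genes, 32 were kept in all 25 alternatives; of 116 for other named genes, 87 were. Counts of genes called over the whole table moved in fits to the libraries compared alone: from 1770 to 945 for KO at 48 h against 0 h, from 650 to 306, 481 to 213 and 556 to 250 for KO against WT at 0, 12 and 48 h, from 10 to 6 and 11 to 3 for the interactions at 12 and 48 h, and from 0 to 1 for the added interaction of genotype and 48 h against 12 h. Those fits hold fewer samples. Without a mean trend the added interaction gave 1 call.

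Leaving out 1 library at a time gave 1159 to 1776 genes called in KO at 48 h against 0 h, 390 to 658, 311 to 490 and 375 to 554 for KO against WT at 0, 12 and 48 h, 6 to 11 and 7 to 11 for the interactions at 12 and 48 h, and 0 to 1 for the added interaction (1 without WT replicate 1 untreated). Members called in KO against WT at 48 h ran from 1 to 2.

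XAF1 and CASP1 made up the 2 members called in KO against WT at 48 h: 1 was called with a pseudocount of 0.1 and 0 in the libraries compared alone. FAS in KO at 48 h, −0.01 and not called, turned to 0.0051 on median-of-ratios scaling and ran from −0.0921 (without KO replicate 3 at 48 h) to 0.0708 (without KO replicate 2 at 48 h) on leaving out 1 library, with 0.0051 without KO replicate 2 untreated; the cause was not tested. The median-ratio scaling also brought the FAS rise at 12 h in KO past the threshold (0.20, adjusted p = 0.0437), and the TNFRSF10A decline from 12 to 48 h in KO (−0.19, adjusted p = 0.0168). It moved the share of higher genes among calls in untreated KO against WT from 57.7% to 46.1%. Members with a promoter match went from 2 to 1 with the longer ISRE core and to 6 with the IRF core, added after the windows were seen.

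No sign of pairing by replicate number was seen, which does not show that a number shares nothing. Deviations of same-numbered samples correlated between −0.10 and 0.16 (median −0.01), with 2 of 45 pairs over 0.1. For other-numbered samples the range was −0.11 to 0.15 (median 0.01), with 2 of 90 pairs over 0.1. With the number as a block, 9 members were called in WT at 12 h and 8 in KO, 4 at 48 h in each, and 2 in KO against WT at 48 h, the same counts as without the block; over all genes the block gave 465 calls in KO against WT at 48 h. RPKM without read totals sets no floor for the untreated XAF1 values.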
